A study of Mus musculus with 8 samples.

Results

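The genes described here encode the enzyme families that oxidise and conjugate foreign compounds. They were chosen by name: every noncontrol gene of the array whose name begins with Cyp and a digit, Ugt1, Ugt2, Gsta, Gstm, Gstp, Gsto, Gstt, Gstk, Gstz or Sult and a digit. Cyp1a1, Cyp1b1, Cyp2g1, Cyp2f2 and Ugt2a1 were left out by the rule. This gave 140 of the 34797 gene names on the array, read by 190 probes: 73 cytochrome P450 genes of families 1 to 4, 19 of families 7 to 51, 11 UDP-glucuronosyltransferase (Ugt) genes, 20 glutathione S-transferase (Gst) genes and 17 sulfotransferase (Sult) genes.

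The tissue was the olfactory bulb of male C57BL/6J mice, an inbred strain, taken at 56 days of age. From gestational day 14 the mice lived either in a standard cage (C) or with environmental enrichment (EE), a larger cage with a running wheel, a small house, wood blocks and tubing. After weaning on postnatal day 27 they inhaled clean air (C) or diesel exhaust (DE) for 8 h a day on 28 days (postnatal days 28 to 55), the exhaust at 90 µg/m3. The groups were C-C (standard cage, clean air), C-DE (standard cage, diesel exhaust), EE-C (enrichment, clean air) and EE-DE (enrichment, diesel exhaust). According to the methods, the RNA of several mice of a group was pooled and the pool was divided over 2 arrays, so each group is 1 pool read by 2 technical arrays. Variation between mice is therefore not in these data, and a difference between 2 pools has no p-value.

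Cytochrome P450 enzymes add oxygen to lipophilic compounds. Members of families 1 to 4 mainly act on drugs, combustion products, fatty acids and eicosanoids, and most members of the higher families make or clear sterols, steroids, bile acids and vitamins. Glutathione S-transferases, UDP-glucuronosyltransferases and sulfotransferases then attach glutathione, glucuronic acid or sulfate, which makes a product easier to excrete. In the nose these enzymes are concentrated in supporting cells and Bowman's glands of the olfactory mucosa, where they are thought to protect the tissue and to clear odorants. In the brain many of them are found in glia, vessels and neurons and act on endogenous compounds.

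Each value below is the log2 of an array's background-corrected signal minus the 75th percentile of that array, so that 0 is the 75th percentile. A log2 fold change is one pool's mean over its 2 arrays minus another pool's, and the brackets hold the lowest and highest of the 4 differences between single arrays of these pools (the pairings). A gene was called past the threshold at 1.5-fold, or 0.58 on the log2 scale. The 75th percentile lay between 644 and 716 intensity units. Between 68.0% and 70.6% of noncontrol spots were well above background on 7 arrays, against 56.7% on the first EE-DE array, where 66 members reached this level instead of 76 to 86. The enriched pools filled one column of the slide and the standard-cage pools the other, so that housing and slide column cannot be told apart. The 10 markers of bulb neurons, such as Eomes, Tbx21 and Th, were all well above background on every array.

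Sequences were read for the members on which the comparisons turned, to show which transcripts the probes can bind. The probes follow the array's annotation on mm9 and are written 5′ to 3′ in lower case. The one for Cyp2a4 (chr7:27098659-27099724, plus strand, spanning a splice junction) is listed by the array for the RefSeq transcripts of both Cyp2a4 and Cyp2a5, as is the gene's brighter probe at chr7:27099880-27099939. The one for Cyp3a11 (chr5:146672058-146673925, minus strand) is listed for 4 genes, Cyp3a11, Cyp3a41a, Cyp3a41b and Cyp3a44. The one for Sult1d1 (chr5:87985008-87985067, minus strand) is listed for that gene alone.
Cyp2a4 probe: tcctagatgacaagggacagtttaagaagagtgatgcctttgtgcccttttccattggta
Cyp3a11 probe: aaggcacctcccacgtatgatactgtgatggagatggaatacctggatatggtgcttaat
Sult1d1 probe: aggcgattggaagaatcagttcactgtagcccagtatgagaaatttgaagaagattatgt

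Promoters, from 250 bases before to 50 bases after the start of transcription, came from RefSeq on GRCm38.p6. Those of Cyp2a4 (chr7:26306942-26307241, plus strand) and Cyp2a5 (chr7:26835089-26835388, plus strand) are shown because the array cannot separate these genes. Over 299 aligned bases they differed at 5, which are in capitals, and were 98.3% identical. The Sult1d1 promoter (chr5:87568957-87569256, minus strand) is shown because it holds GCGTG, the core of the sequence that the aryl hydrocarbon receptor (Ahr), a sensor of combustion products, binds with Arnt. The core lies on the opposite strand, and its reverse complement is in capitals.
Cyp2a4 promoter: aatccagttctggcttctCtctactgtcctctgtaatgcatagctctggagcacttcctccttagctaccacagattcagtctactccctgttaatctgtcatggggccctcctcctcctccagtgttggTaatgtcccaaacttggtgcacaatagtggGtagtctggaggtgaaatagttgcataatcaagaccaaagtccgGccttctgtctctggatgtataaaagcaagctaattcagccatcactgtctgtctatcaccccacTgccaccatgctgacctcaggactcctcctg
Cyp2a5 promoter: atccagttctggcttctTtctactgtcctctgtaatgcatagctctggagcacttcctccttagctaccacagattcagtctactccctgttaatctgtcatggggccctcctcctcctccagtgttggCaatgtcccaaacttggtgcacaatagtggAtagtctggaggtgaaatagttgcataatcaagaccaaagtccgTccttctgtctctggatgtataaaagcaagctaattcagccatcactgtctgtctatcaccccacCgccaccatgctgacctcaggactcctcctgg
Sult1d1 promoter: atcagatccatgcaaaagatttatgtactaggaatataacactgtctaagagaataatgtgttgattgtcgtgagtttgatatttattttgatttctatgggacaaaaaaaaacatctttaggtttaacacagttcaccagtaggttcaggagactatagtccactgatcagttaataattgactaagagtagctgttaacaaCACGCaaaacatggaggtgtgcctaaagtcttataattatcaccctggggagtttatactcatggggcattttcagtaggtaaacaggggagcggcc

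On either strand GCGTG was found in 26.2% of the 65 promoters of the 51 measured members that the table holds, against 32.4% of all 32851 promoters. The longer form TNGCGTG, which contains GCGTG, was found in 1 member promoter, that of Sult1d1 (1.54%), against 5.07% of all. TGACNNNGC, the antioxidant response element bound by Nrf2, was found in 9.23% of member promoters and 12.4% of all, among them those of Gsta3, Gstm5 and Gstm7. The promoters of Cyp2a4, Cyp2a5, Cyp3a11 and Sult6b1 held none of these letters. Such a match describes the sequence and does not show binding.

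The glutathione S-transferases were the family measured almost in full in the bulb. A probe well above background on all 8 arrays, with no outlier flag, was found for 65 of the 140 members (46.4%), beside 66.8% of the 24954 gene names on the array that, like all members, carry a GenBank or RefSeq accession. For 33 others a probe reached this level on 1 to 7 arrays, and for 42 on no array. The plot of detection by family shows the split: 18 of 20 Gst genes were measured on all arrays, against 29 of 73 in Cyp families 1 to 4, 10 of 19 in Cyp families 7 to 51, 6 of 17 Sult genes and 2 of 11 Ugt genes. All 7 Gstm genes passed, whereas 6 of 8 Cyp3a, 6 of 7 Ugt2b, 5 of 7 Sult2 and 3 of 4 Cyp2a genes, groups best known from liver, were above background on no array. Among measured members, 60 of 65 were read by a probe listed for a single RefSeq gene. The probes of Cyp2a4, Cyp2j13, Cyp3a11 and Ugt1a6b were listed for 2 to 4 genes each, so that their values belong to the group. Transcripts of the Ugt1a genes are known to share their last exons.

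**Figure D1:**
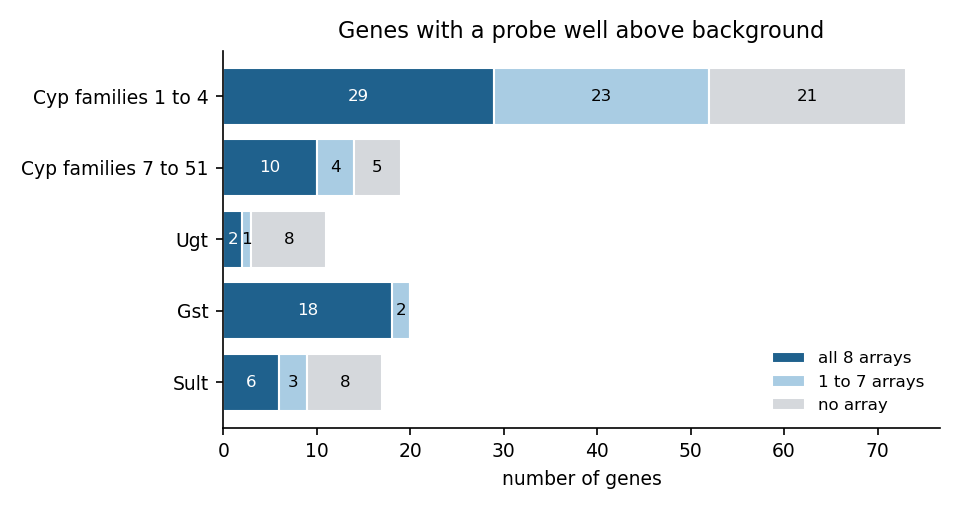
Number of genes in each enzyme family (bars, genes) with a probe well above background on all 8 arrays (dark blue), on 1 to 7 arrays (light blue) or on no array (grey). In the Gst family 18 of 20 genes were measured on all arrays, while 8 of 11 Ugt genes were seen on none.

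Few members passed 1.5-fold, in any direction and in any comparison. For C-DE/C-C, which asks what diesel exhaust changed in mice from standard cages, 1 of 65 members was called, Cyp2a4, against 0.642% of all 16673 genes tested. For EE-DE/EE-C, the same exposure after enrichment, 2 were called, Cyp2a4 and Sult6b1, against 0.978% of genes. For EE-DE/C-C, 2 were called, Cyp2a4 and Cyp3a11, against 0.924%. With clean air, EE-C/C-C, no member was called, against 0.846% of genes. With exhaust in both housings, EE-DE/C-DE, 2 were called, Cyp2a4 and Sult1d1, against 0.744%. Each count of members is 1.54% or 3.08% of 65 genes where any was called, and Cyp2a4 for EE-DE/C-DE was the single member past 1.5-fold in all 4 pairings of arrays, beside 0.21% of all genes there and 0.048% to 0.138% in the other comparisons. These comparisons share pools with each other, so the same array enters several of them.

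The members as a whole stayed close to 0. Their median log2 fold change was −0.02 for C-DE/C-C (all genes −0.01), −0.01 for EE-DE/EE-C (all genes −0.01), 0.05 for EE-DE/C-C (all genes −0.01), 0.05 for EE-C/C-C (all genes 0.01) and 0.05 for EE-DE/C-DE (all genes 0.00). In the 3 comparisons of enriched with standard housing (EE-DE/C-C also differs in air) 43, 43 and 42 of 65 members were higher, or 66.2%, 66.2% and 64.6%, beside 48.0%, 53.5% and 51% of all genes. The medians for EE-DE/C-C and EE-C/C-C ran from −0.01 to 0.08 and from −0.02 to 0.11 over the pairings of arrays. Without the second C-C array they were 0.02 and 0.02, and without the first EE-C array that for EE-C/C-C was 0.01. The median for EE-DE/C-DE was 0.01 without the second EE-DE array. For C-DE/C-C 27 members were higher and for EE-DE/EE-C 31. The plot of fold changes by family shows where these members lie.

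**Figure D2:**
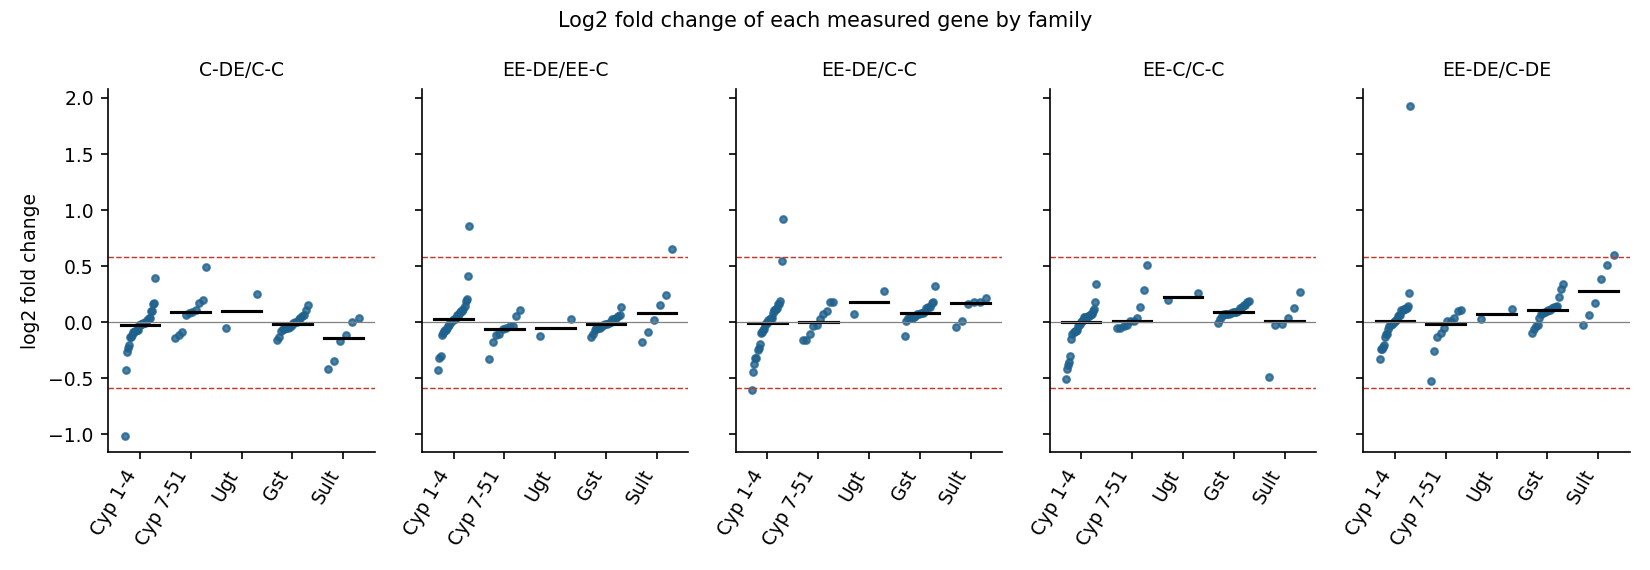
Log2 fold change of each of the 65 measured genes (points) by enzyme family in the 5 comparisons, with the family median (black bar) and 1.5-fold in either direction (dashed lines). Cyp2a4 lies beyond the lines in 4 comparisons, and the Gst points stay within 0.34 of 0 in all of them.

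Cyp2a4, a P450 of liver and nasal mucosa that hydroxylates testosterone, had the largest difference of any member in 4 of the 5 comparisons, all but EE-C/C-C. Its values were 2.54 and 1.35 on the C-C arrays, 0.62 and 1.25 on the C-DE arrays, 2.77 and 1.24 on the EE-C arrays and 2.43 and 3.31 on the EE-DE arrays. Both C-DE arrays and the second array of C-C and of EE-C were low, and both EE-DE arrays were high. The arrays of C-DE and EE-DE did not overlap, whereas the EE-C arrays enclosed both C-C values. The log2 fold change was −1.01 (−1.92 to −0.10) for C-DE/C-C, 0.86 (−0.34 to 2.06) for EE-DE/EE-C, 0.92 (−0.11 to 1.96) for EE-DE/C-C, 0.06 (−1.30 to 1.42) for EE-C/C-C and 1.93 (1.18 to 2.68), or 3.82-fold, for EE-DE/C-DE. The gene's second probe, the one printed above, gave −0.96, 0.83, 0.94, 0.11 and 1.91 in the same order. In the fit described below the shared effect of housing on Cyp2a4 was 1.00 ± 0.50 (SE) and that of diesel exhaust −0.07 ± 0.50, with limma adjusted p = 0.57 and 0.974.

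The duplicate arrays of 1 pool, which according to the methods carry the same RNA, differed for Cyp2a4 by 1.19 for C-C and 1.53 for EE-C (first minus second array), and by −0.63 for C-DE and −0.87 for EE-DE. The differences between the arrays of a pool were therefore of the size of most differences between pools. Over all genes 0.852% (C-C) and 2.17% (EE-C) of duplicates lay 1.5-fold or more apart. Whether the duplicates of these pools are equal parts of one RNA was not tested, and the pool means and ranges of Cyp2a4 rest on that. Without the first C-C array the value for C-DE/C-C was −0.41, and without the second it was −1.61. For EE-DE/EE-C leaving out the second EE-C array gave 0.10 and leaving out the first 1.63. For EE-DE/C-C it ran from 0.33 to 1.52 when single arrays were left out. For EE-DE/C-DE the range was 1.5 to 2.37.

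Markers of another tissue moved with Cyp2a4. The list of 12 genes of olfactory mucosal supporting cells and glands, among them Cyp2g1, Cyp2f2, Ugt2a1, Cbr2 and Sec14l3, was measured in full, and its median log2 fold change was −1.21 for C-DE/C-C, 0.72 for EE-DE/EE-C, 0.38 for EE-DE/C-C, −0.32 for EE-C/C-C and 1.61 for EE-DE/C-DE. Over the pairings of arrays this median kept its sign for C-DE/C-C (−1.79 to −0.67) and EE-DE/C-DE (1.11 to 2.18), whereas it crossed 0 for EE-DE/EE-C (−0.15 to 1.75), EE-DE/C-C (−0.29 to 1.12) and EE-C/C-C (−1.31 to 0.57). Past 1.5-fold in the pool means were 11, 8, 2, 3 and 11 of the 12. Cyp2f2, Ugt2a1, Krt18, Umodl1, Mslnl, Aqp3 and Fetub are genes that the study named as changed in these samples, so the list is not independent evidence of its direction. The study also measured Cyp2f2, Aqp3, Mslnl, Krt18 and Umodl1 by RT-PCR on single mice, in samples it describes as not used on the arrays. It reported them lower in C-DE than in C-C and different between C-DE and EE-DE. After enrichment it reported no significant effect of exhaust on them. On the linear scale, with 1 at the 75th percentile, the summed level of the list was 14.6 and 8.52 on the C-C arrays, 4.64 and 5.71 on the C-DE arrays, 13.6 and 5.47 on the EE-C arrays and 12.0 and 19.2 on the EE-DE arrays. It was low and high on the same arrays as Cyp2a4, as the plot of Cyp2a4 beside the markers shows. The 9 measured markers of olfactory sensory neurons (Rtp1 did not pass the filter) had medians of −0.20 for C-DE/C-C and 0.35 for EE-DE/C-DE and summed levels between 109 and 135. Of these Cnga4 and Ano2, which encode ion channel proteins of the olfactory cilia, passed 1.5-fold at −0.95 and −0.90 for C-DE/C-C, at 0.72 each for EE-DE/EE-C and at 1.26 and 1.22 for EE-DE/C-DE. Cnga4 is also a gene that the study named as changed in these samples. The other measured markers of this list lay between −0.51 (Cnga2) and −0.06 (Adcy3) for C-DE/C-C. The 10 bulb neuron markers had medians between −0.04 and 0.03 and summed levels between 350.4 and 368.2. The 4 measured markers of choroid plexus were all lower for C-DE/C-C (median −0.35) and all higher for EE-DE/C-DE (0.35), and so were the 5 of red cells (−0.21 and 0.22), without passing 1.5-fold. The medians of the 8 astrocyte and 8 endothelial markers lay between −0.04 and 0.03 in every comparison, and of 8 markers of meninges 1 passed 1.5-fold, Dcn for EE-DE/EE-C. Dcn read 2.66 on the first EE-C array and between 3.39 and 3.86 on all other arrays. In bulk tissue fewer cells of a type and less RNA per cell cannot be told apart, and the part of RNA from mucosa, choroid plexus or blood in the Cyp2a4 values was not tested.

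**Figure D3:**
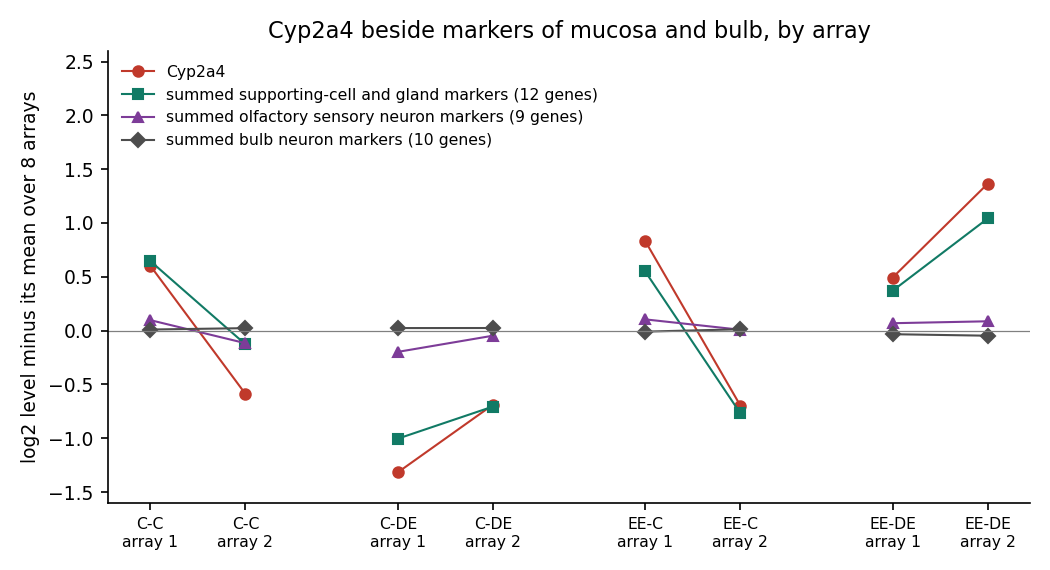
Log2 level on each of the 8 arrays, as the difference from its mean over the arrays, for Cyp2a4 (red), the summed markers of mucosal supporting cells and glands (green), of olfactory sensory neurons (purple) and of bulb neurons (grey); lines join the 2 arrays of a pool. Cyp2a4 and the supporting-cell markers are lowest on the first C-DE array and highest on the second EE-DE array, while the bulb neuron markers are level.

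Of 12 genes of these families known from nasal mucosa, 6 were measured. Cyp2a5, Cyp2a21-ps and Ugt2a2 are not named on the array, Cyp4b1 and Sult1c1 were above background on no array, and Cyp1a2, an oxidase of aromatic amines induced through Ahr, on 3. For Cyp1a2 these were the first C-C array (−4.90), the first EE-C array (−5.76) and the second EE-DE array (−4.82), and its values on the other 5 lay between −7.69 and −5.89. No fold was derived for it. For C-DE/C-C none of the 6 measured genes of the list was higher (median −0.18), beside 46.1% of all genes. For EE-DE/EE-C 3 were higher (0.01), and 4 each were higher for EE-DE/C-C (0.11), EE-C/C-C (0.04) and EE-DE/C-DE (0.26).

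Sult1d1, which sulfates catecholamines and eicosanoids, read −2.90 and −3.31 on the C-C arrays, −3.62 and −3.42 on the C-DE arrays, −2.98 and −3.17 on the EE-C arrays and −3.23 and −2.62 on the EE-DE arrays. Both C-DE arrays were below the other 6. The log2 fold change was 0.60 (0.19 to 1.00) for EE-DE/C-DE, just past 1.5-fold, and −0.41 (−0.72 to −0.11) for C-DE/C-C. It was 0.15 (−0.25 to 0.55) for EE-DE/EE-C. Without the second EE-DE array EE-DE/C-DE was 0.29, without the first C-DE array 0.50, and with normexp background correction it was 0.44. The supporting-cell markers above stood in the same direction in these comparisons, and their part in the Sult1d1 values was not tested.

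Gsta3 and Gstm2, conjugating enzymes on the same list, differed by less. Gsta3 read −0.48 and −0.83 on the C-C arrays, −0.82 and −0.76 on C-DE, −0.49 and −0.72 on EE-C and −0.66 and −0.47 on EE-DE, and the log2 fold change for EE-DE/C-DE was 0.22 (0.09 to 0.36). Its dimmer probe gave 0.50 there and −0.40 for C-DE/C-C, against −0.13 for the brighter probe. Gstm2 was higher by 0.30 (0.28 to 0.31) for EE-DE/C-DE and lower by −0.16 (−0.29 to −0.04) for C-DE/C-C. A dim Gstm2 probe gave 0.62 for EE-DE/EE-C where its brightest probe gave −0.02, one of 3 members whose probes lay over 1.5-fold apart. Cyp2e1, which oxidises ethanol and small solvents, read between −2.42 and −1.72 on the 8 arrays, and the C-DE duplicates lay farther apart than any of its pool means. Cyp2s1, an epithelial P450, was lower by −0.19 for EE-DE/C-C and by −0.11 to −0.08 in the other comparisons.

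Sult6b1, a sulfotransferase of uncertain substrate, was called for EE-DE/EE-C on a dim probe. It read −2.82 and −3.82 on the C-C arrays, −3.92 and −3.41 on C-DE, −3.48 and −4.13 on EE-C and −3.03 and −3.29 on EE-DE. The C-C arrays alone lay 0.99 apart. The log2 fold change was 0.65 (0.19 to 1.10) for EE-DE/EE-C, −0.34 (−1.10 to 0.41) for C-DE/C-C and 0.51 (0.12 to 0.89) for EE-DE/C-DE. Leaving out the second EE-C array made EE-DE/EE-C 0.32, and it was 0.33 with normexp background correction. The signs of its values in the 5 comparisons were those of the supporting-cell marker medians, both read higher on the first array of C-C and of EE-C than on the second, and the part of these markers in the Sult6b1 values was not tested.

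Cyp3a11, the main drug-oxidising P450 of mouse liver, was lower in all 5 comparisons of pool means. It read −2.04 and −2.08 on the C-C arrays, −2.28 and −2.38 on C-DE, −2.18 and −2.54 on EE-C and −2.73 and −2.59 on EE-DE. The C-C arrays were the highest and the EE-DE arrays the lowest, and neither overlapped another pool. The log2 fold change was −0.27 (−0.34 to −0.20) for C-DE/C-C, −0.30 (−0.55 to −0.05) for EE-DE/EE-C, −0.30 (−0.50 to −0.10) for EE-C/C-C, −0.33 (−0.46 to −0.21) for EE-DE/C-DE and −0.60 (−0.69 to −0.51) for EE-DE/C-C, where it was called. In the limma fit its shared diesel effect was −0.28 ± 0.04 (SE), with adjusted p = 0.597, and its shared housing effect −0.32 ± 0.04, with adjusted p = 0.487. With normexp background correction the value for EE-DE/C-C was −0.29 and with quantile normalization −0.58, both under the threshold. Leaving out single arrays gave −0.67 to −0.53 for EE-DE/C-C, under the threshold without the first C-C array or the first EE-DE array. The normexp values of the other comparisons were −0.16 for C-DE/C-C, −0.17 for EE-DE/EE-C, −0.13 for EE-C/C-C and −0.13 for EE-DE/C-DE. Without the second EE-C array EE-C/C-C gave −0.12, and without the first −0.48, while EE-DE/EE-C gave −0.48 and −0.12. The plot of called members by array shows the 4 genes side by side.

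**Figure D4:**
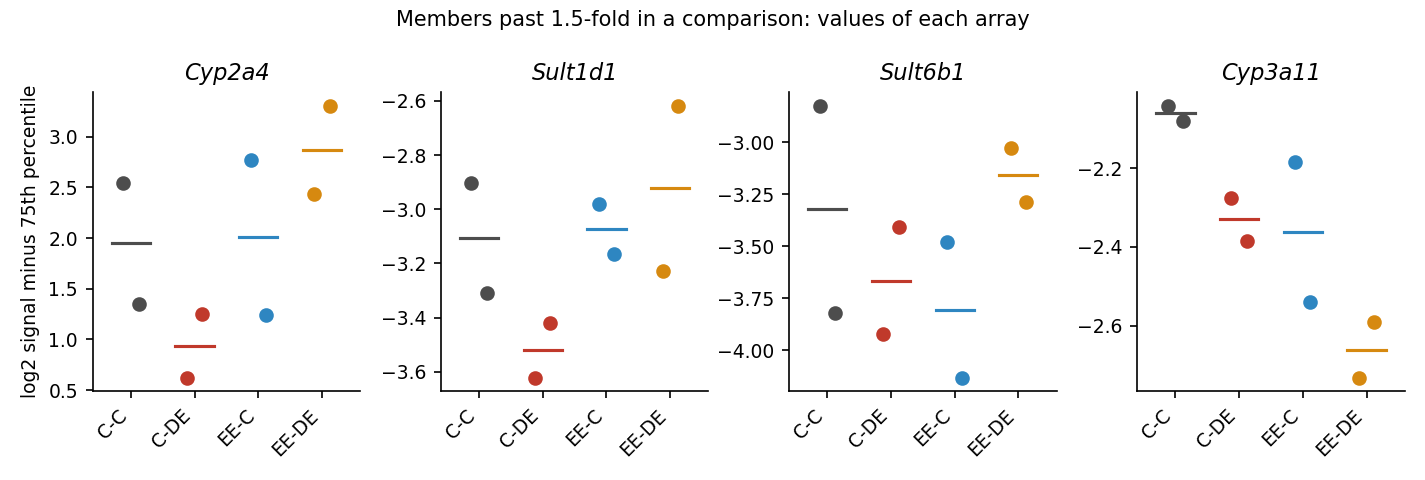
Log2 signal relative to the 75th percentile of the array for the 4 members past 1.5-fold in a comparison, on each array (points) with the mean of a pool (bar), by pool; each panel has its own vertical axis. The 2 arrays of the C-C pool lie 1.19 apart for Cyp2a4, whereas for Cyp3a11 they lie together above all the others.

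Among the Cyp2c genes, fatty acid epoxygenases and drug oxidases of liver, 5 of 13 were measured, all of them dim. Cyp2c38 read −3.94 and −3.40 on the C-C arrays, −3.34 and −3.21 on C-DE, −3.67 and −2.99 on EE-C and −3.25 and −3.00 on EE-DE, so that every C-DE and EE-DE array was above both C-C arrays. Its log2 fold change was 0.40 (0.07 to 0.73) for C-DE/C-C and 0.55 (0.16 to 0.94) for EE-DE/C-C. When single arrays were left out these ran from 0.13 to 0.67 and from 0.28 to 0.82. Under the other settings they ran from 0.17 to 0.42 and from 0.35 to 0.58. Cyp2c67, Cyp2c70 and Cyp2c55 went the other way. Cyp2c67 read −3.70 and −3.79 for C-C and between −4.24 and −3.89 on the other 6 arrays, with −0.43 (−0.50 to −0.36) for C-DE/C-C and −0.41 (−0.52 to −0.30) for EE-C/C-C. Cyp2c70 was lower by −0.39 (−0.43 to −0.34) for EE-C/C-C and by −0.44 (−0.69 to −0.19) for EE-DE/C-C, and Cyp2c55 by −0.35 (−0.56 to −0.14) and −0.32 (−0.45 to −0.19) in the same order. Cyp2c37 was lower by −0.43 (−0.79 to −0.06) for EE-DE/EE-C, where its first EE-DE array read −4.23 and the second −3.56.

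The other measured P450 genes of families 1 to 4 stayed under 1.5-fold. Cyp2j9, an arachidonic acid epoxygenase of brain, read between 2.73 and 2.84 on all arrays, and Cyp2j6 between −0.28 and −0.12. Cyp2d22, the mouse gene most like human CYP2D6, was lower by −0.32 (−0.60 to −0.03) for EE-DE/EE-C and by −0.25 (−0.48 to −0.01) for EE-DE/C-C. Cyp2u1, a fatty acid hydroxylase of brain and thymus, read between 4.94 and 5.20 on its brightest probe. Its other probes had mean levels of −2.18 and −4.49, and the dimmest is the one listed for the RefSeq gene. The 3 Cyp2u1 probes disagreed for EE-DE/EE-C, from −0.38 to 0.22, and the brightest of them carries a cDNA accession that the RefSeq table does not name. Cyp3a13 was lower by −0.22 (−0.40 to −0.04) for EE-DE/C-DE and higher by 0.16 (0.12 to 0.21) for C-DE/C-C. Cyp2t4 was higher by 0.17 (0.03 to 0.32) for C-DE/C-C, and Cyp2j8 by 0.14 (0.07 to 0.22) for EE-DE/EE-C. Cyp4f13 and Cyp4v3, whose families hydroxylate the omega end of fatty acids, lay between −0.09 and 0.12 in every comparison. Cyp4f14, an omega-hydroxylase of leukotrienes named here after its values were seen, read −0.93 on the first EE-C array and between −0.01 and 0.11 on the other 7. Its log2 fold change was −0.50 (−1.02 to 0.02) for EE-C/C-C, the lowest of the 65 members there, and 0.41 (−0.11 to 0.93) for EE-DE/EE-C, and with normexp background correction it was past 1.5-fold at −0.79 and 0.63. Its spot and those of Cyp2c67, Cyp2d22, Cyp2j6, Cyp4a12b and Gstm6 lie in parts of the slide where the EE-C duplicates differed by a local median of over 0.15 in either direction, and the part of this in their EE-C values was not tested.

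Among the P450 genes of the higher families, 2 stood out without passing 1.5-fold. Cyp17a1, the 17α-hydroxylase and lyase of sex steroid synthesis, read 1.37 and 1.32 on the C-C arrays, 1.36 and 1.5 on C-DE, 1.84 and 1.87 on EE-C and 1.36 and 1.70 on EE-DE. The EE-C arrays were above all others, with 0.51 (0.47 to 0.56) for EE-C/C-C and −0.33 (−0.51 to −0.15) for EE-DE/EE-C. Cyp20a1, an orphan P450 that is expressed in brain, read −1.16 and −1.17 on the C-DE arrays and between −1.81 and −1.57 on the other 6. Its log2 fold change was 0.50 (0.44 to 0.56) for C-DE/C-C and −0.53 (−0.65 to −0.40) for EE-DE/C-DE. A dimmer probe, upstream in the same gene, gave −0.30 and 0.19, the opposite sign, and the mean of both probes was 0.10 for C-DE/C-C.

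The sterol and retinoid enzymes of brain stayed under 1.5-fold. Cyp46a1, the neuronal 24-hydroxylase by which the brain sheds cholesterol, was higher by 0.11 (0.04 to 0.17) for C-DE/C-C and lower by −0.06 (−0.12 to −0.01) for EE-DE/EE-C. Cyp7b1, which hydroxylates oxysterols and neurosteroids, read 0.64 and 0.66 for C-C and 0.51 and 0.50 for C-DE, a difference of −0.14 (−0.16 to −0.12). Cyp51, the sterol demethylase of cholesterol synthesis, was higher by 0.20 (0.05 to 0.35) for C-DE/C-C. Cyp39a1 lay between −0.09 and 0.11 throughout, and Cyp27a1 was higher by 0.11 (0.08 to 0.14) for EE-DE/EE-C. Cyp26b1, which clears retinoic acid, was lower by −0.17 (−0.29 to −0.05) in the same comparison. Among the enzymes of steroid synthesis, Cyp21a1 was higher by 0.29 (0.21 to 0.37) for EE-C/C-C and Cyp11a1, which cleaves the cholesterol side chain, lower by −0.25 (−0.39 to −0.11) for EE-DE/C-DE. Of 36 listed genes with a described role in brain, 35 are on the array (Ugt1a1 is not) and 32 were measured, none passed 1.5-fold, where 0.642% to 0.978% of all genes did, and the medians ran from −0.02 to 0.06.

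The Gst genes differed little with exhaust, as did most genes. For this exposure, for C-DE/C-C and likewise for EE-DE/EE-C, all 18 lay within 0.2 of 0, beside 91.6% and 90.3% of all genes, with medians of −0.02 and −0.02. In the comparisons of housing most were slightly higher with enrichment. For EE-C/C-C 17 of 18 were higher, with a median of 0.09 (0.06 to 0.16 over the pairings). For EE-DE/C-C 17 were higher, with a median of 0.08 (0.05 to 0.10). For EE-DE/C-DE 14 were higher, with a median of 0.11 (0.09 to 0.11), and 12 to 16 under the alternative settings. Without the first EE-C array the median for EE-C/C-C was 0.05, with 14 of 18 higher, and without the second it was 0.14. In all 4 pairings 10, 9 and 10 of the 18 were higher, or 55.6%, 50% and 55.6%, beside 21.1%, 22.7% and 22.0% of all genes tested. The genes share their arrays and slide column and are not independent of each other, and none of them passed 1.5-fold.

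Gstt2, a theta-class enzyme that conjugates small electrophiles, read −1.15 and −1.20 on the C-C arrays, −1.22 and −1.15 on C-DE, −0.89 and −1.08 on EE-C and −0.83 and −0.86 on EE-DE. All 4 enriched arrays were above all 4 standard-cage arrays, with 0.19 (0.07 to 0.32) for EE-C/C-C and 0.34 (0.29 to 0.39) for EE-DE/C-DE. Gstp1, the pi-class enzyme that also holds stress kinases in check, read 2.70 and 2.71 on the C-C arrays, 2.70 and 2.72 on C-DE, 2.78 and 2.77 on EE-C and 2.84 and 2.84 on EE-DE. This gave 0.07 (0.06 to 0.08) for EE-C/C-C and 0.13 (0.12 to 0.14) for EE-DE/C-DE, while its second probe, which is also listed for Gstp2, gave 0.02 and −0.04. Gstz1, which acts in tyrosine breakdown, was higher by 0.13 (0.10 to 0.16) and 0.14 (0.05 to 0.23) in these comparisons, and Gsto1, an omega-class thiol transferase, by 0.15 (0.08 to 0.22) and 0.11 (0.05 to 0.17). Gstt1, Gstt3, Gstm5 and Gstk1 were higher by 0.07 to 0.14 in both. Gstm1, the major mu-class enzyme of glia, was higher by 0.09 (−0.03 to 0.22) and 0.04 (−0.10 to 0.18), within the spread of the arrays. The array's annotation places this probe on chromosome 5, away from the gene's other probe on chromosome 3, which gave 0.07 and 0.03. Gstm6 was higher by 0.18 (0.02 to 0.34) and 0.10 (−0.02 to 0.23), whereas Gstm3 and Gstm4 were above 0 with clean air (0.07 each) and below it with exhaust (−0.10 and −0.03). Gstp2, Gsta4 and Gsto2 differed by −0.02 to 0.13, and Gstm7 was the single Gst gene below 0 for EE-C/C-C, at −0.01. The plot of the Gst genes gives each of them with its range.

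**Figure D5:**
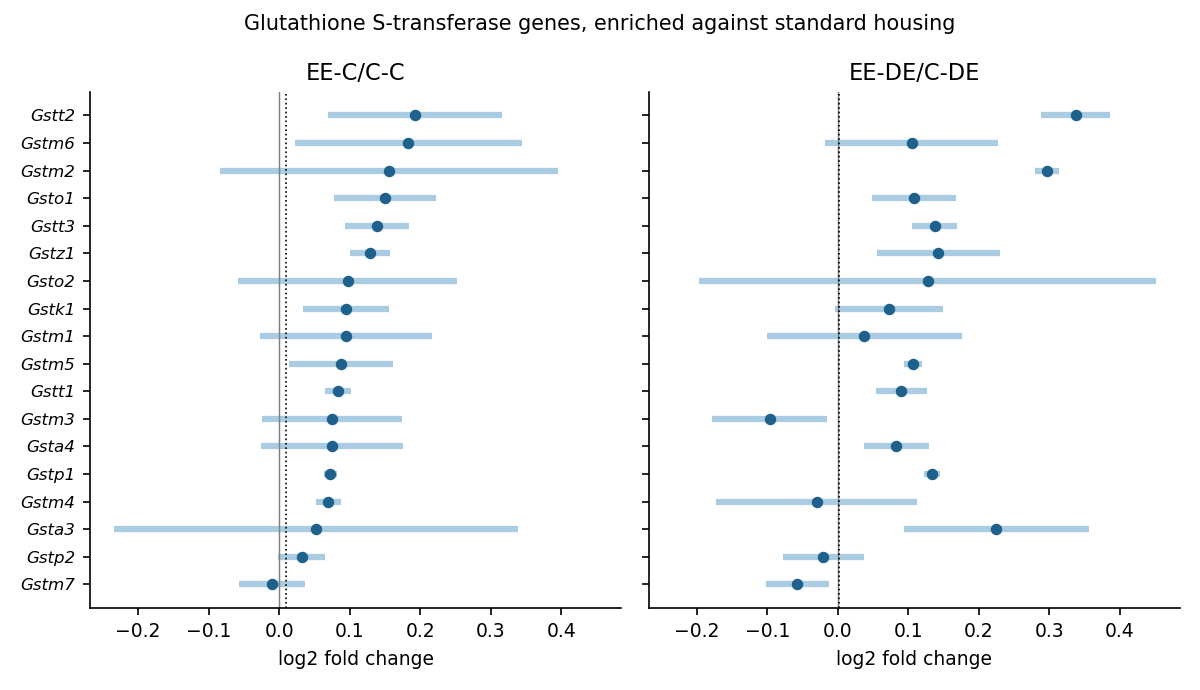
Log2 fold change of the 18 measured Gst genes between enriched and standard housing, under clean air (EE-C/C-C, left) and under diesel exhaust (EE-DE/C-DE, right); points are differences of pool means, bars the range over the 4 pairings of arrays, and the dotted line the median of all genes. Points lie right of 0 for 17 of 18 genes on the left and 14 of 18 on the right, most of them within 0.2.

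Of the sulfotransferases with a known role in brain, Sult4a1, an orphan member expressed in neurons, was the steadiest, between 4.90 and 5.02 on all arrays. Sult1a1, which sulfates phenols and catecholamines, was higher by 0.27 (0.12 to 0.41) for EE-C/C-C and 0.18 (0.06 to 0.29) for EE-DE/C-DE. Sult2b1, a cholesterol sulfotransferase, was lower by −0.17 (−0.29 to −0.06) for EE-DE/EE-C. Sult5a1 was higher by 0.38 (0.23 to 0.53) for EE-DE/C-DE on a dim probe. The measured Ugt genes were 2. Ugt1a6b, read with its neighbours, was higher by 0.19 (0.11 to 0.28) for EE-C/C-C and lower by −0.05 (−0.12 to 0.02) for C-DE/C-C. Ugt2b37, a dim liver-type member, read −4.43 and −4.32 for C-C and between −4.19 and −4.0 on the other 6 arrays, and was higher by 0.25 (0.18 to 0.32) for C-DE/C-C.

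Among members near the detection limit, 9 were well above background on both arrays of one pool and on no array of another, and for these only bounds could be given. The share of all genes with this pattern was not derived, so the count is not read as a result about the members. Each was picked through the pool in which it is bright, so the direction of its bound follows from the choice. The bounds set the bright pool's mean against a level for the dim pool. That level is the lowest signal that counts as well above background on each of its arrays, or the probe's own signal where that is higher. A bound holds for the mean of the bright pool and not for each of its arrays. For Cyp2b10 the level for C-DE was −6.20, and the second C-C array read −5.65. Cyp2b10, the classic target of the constitutive androstane receptor, was at least 1.98-fold lower with C-DE than with C-C and at least 1.89-fold lower with C-DE than with EE-C. It read −4.77 and −5.65 on the C-C arrays, −6.21 and −6.96 on C-DE, −4.90 and −5.66 on EE-C and −6.86 and −5.07 on EE-DE, where the first array was not well above background. Cyp2d34 was at least 1.5-fold higher for C-C than for EE-DE, and Cyp2c68 at least 1.54-fold higher for EE-C than for C-DE. Cyp2b19 was at least 1.46-fold and 1.39-fold higher for C-C than for C-DE and EE-C, Sult1c2 at least 1.39-fold and 1.22-fold, Cyp2c44 at least 1.36-fold higher for C-C than for C-DE, and Cyp2d13 at least 1.04-fold higher for C-C than for EE-DE. Cyp2c66 and Cyp4f41-ps gave no bound above 1.

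Receptors and partners of these enzymes were measured for 17 of 18 genes. Nr1i2, the pregnane X receptor, was above background on no array. Nr1i3, the constitutive androstane receptor that drives Cyp2b10 in liver, read −0.77 and −1.08 on the C-C arrays, −2.02 and −1.78 on C-DE, −1.63 and −2.13 on EE-C and −2.33 and −1.74 on EE-DE. The C-C arrays were above all others, with −0.97 (−1.24 to −0.70) for C-DE/C-C, −1.11 (−1.56 to −0.66) for EE-DE/C-C and −0.96 (−1.36 to −0.56) for EE-C/C-C. It was the one gene of the list past 1.5-fold. The study chose Nr1i3 from these arrays for RT-PCR on single mice. There it reported C-DE as different from C-C and from EE-C, and marked no difference between C-C and EE-C. Ahr, Arnt and the repressor Ahrr were at −0.15, −0.07 and −0.28 for C-DE/C-C and at 0.02, 0.04 and 0.18 for EE-DE/EE-C. Nfe2l2, which encodes Nrf2, was at −0.06 and 0.09, and Por, the reductase that all microsomal P450 enzymes need, at 0.02 and 0.05.

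Other enzymes of the same pathways were read beside 0.642% to 0.978% of all genes past 1.5-fold, a share at which lists of this size hold few or no such genes. Among 20 of 24 measured oxidases, reductases and hydrolases outside the families above, 1 passed 1.5-fold in a single comparison, the alcohol dehydrogenase Adh1 for EE-DE/C-DE at 0.62 (0.59 to 0.65). Nqo1, a quinone reductase induced through Nrf2 and Ahr, was at 0.18 (0.06 to 0.31) for C-DE/C-C and 0.10 (−0.13 to 0.33) for EE-DE/EE-C. All 16 genes of other conjugation steps and cofactor supply were measured, and Papss2, which makes the sulfate donor, was called for EE-DE/EE-C (0.61) and EE-C/C-C (−0.59). The first EE-C array read 0.26 against 1.25 to 1.44 on the other 7. None of the 11 measured transporters of 12, which carry drugs and conjugates across membranes, passed 1.5-fold in any comparison.

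A fit over all 4 pools gave the effects that the housings or the exposures share, with the pools as replicates and 1 residual degree of freedom. It used limma on the pool means with housing and air as terms. After Benjamini-Hochberg adjustment over all genes no member had p under 0.05 for diesel exhaust or for housing, nor did any other gene (0% for each). At an unadjusted p under 0.05 there were 7 of 65 members for diesel exhaust, or 10.8%, against 1264 or 7.58% of all genes. For housing there were 14, or 21.5%, against 1598 or 9.58% of all genes. Of the 14, 11 were higher and 3 lower with enrichment. The 11 included Gstm2, Gstm6, Gsto1, Gstt2, Gstt3 and Gstz1, and the 3 lower were Cyp2c55, Cyp2c70 and Cyp3a11. The 7 for diesel exhaust were Cyp2c38 and Cyp2t4, higher, and Cyp26b1, Cyp2c37, Cyp2d22, Cyp3a11 and Sult2b1, lower. Each pool enters as 1 sample, and nothing here shows how mice of a group differ.

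The duplicate arrays set the scale for all of these values. The median absolute difference between the 2 arrays of a pool was 0.07 with C-C, 0.08 with C-DE, 0.11 with EE-C and 0.08 with EE-DE over the 65 members, and 0.07, 0.06, 0.09 and 0.06 over all genes. Duplicates lay at least 1.5-fold apart for 2, 2, 4 and 3 of the 65 members, beside 0.852%, 0.798%, 2.17% and 1.27% of all genes. Cyp2a4 was among them in every pool, Sult6b1 for C-C and EE-C, Cyp2e1 for C-DE, Cyp2c38 and Cyp4f14 for EE-C, and Cyp2c37 and Sult1d1 for EE-DE.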

How the data were processed

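RNA of the olfactory bulb was hybridized to 8 one-colour Agilent 60-mer arrays, 2 for each of 4 pooled RNAs. The authors deposited the spot intensity values of Agilent Feature Extraction 10.7.3.1, which subtracts background and detrends each array but does not scale arrays to each other. Their series table holds log2 values that the authors processed. For 99.4% of 21902 probes these lay within 0.02 on all arrays of the scanner values once the latter were scaled by percentile and centred by probe (largest difference 0.549), and its columns had medians from −0.01 to 0.02. The number of arrays limits the precision.

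Here each noncontrol spot's processed signal was log2 transformed and the array's 75th percentile subtracted. Spots with a GenBank or RefSeq accession, no outlier flag and a signal well above background on all 8 arrays were kept. Spots of a probe were averaged, and the brightest probe stood for a gene, which left 16673 genes. No member spot was saturated. As a group is 1 pool, differences between pools have no test and were called at 1.5-fold. The one test was limma's lmFit and eBayes on the 4 pool means with housing and air as terms, adjusted by Benjamini-Hochberg over all genes. The scripts were tested on simulated data with known changes.

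Named members were those past 1.5-fold in a comparison, up to 5 rises and 5 falls of largest size in each comparison with the same sign in all pairings, those of the lists for brain and nasal mucosa, those seen in one pool and not in another, and those with disagreeing probes. Cyp4f14, Gstm3, Gstm4, Gstm6 and members named only for their probes stand outside this rule. The members, lists and tests were chosen with earlier results of these data known. Gene names are those of the array, and 137 of 140 are symbols in a later RefSeq table.

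Alternatives, tried singly, were normexp (offset 50) or quantile normalization, scaling to the median of passing spots, the series table, a filter on both arrays of 1 pool, spots without such accessions, spots with outlier flags, the mean of probes, leaving out parts of the slide where duplicates differed by over 0.3, leaving out each array, 2-fold, and 1.5-fold in all pairings. A lower limit of 0.15 for parts of the slide was chosen after seeing the data. Software was Python 3.11.15 (numpy 2.4.6, pandas 2.3.3, matplotlib 3.10.9) and R 4.3.3 (limma 3.58.1).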

Additional observations from a re-analysis of the deposited data

Results flagged for a closer look

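For 2 of the named members every pairing of arrays put the exposed pool on opposite sides of the clean-air pool in the standard and the enriched housing. Of all 16673 genes 3041 were higher in every pairing for C-DE/C-C, and 3373 were lower in every pairing for EE-DE/EE-C. The share that did both was not derived, so the count of 2 is not read as a result about the members. Cyp21a1 was higher by 0.17 (0.06 to 0.28) for C-DE/C-C but lower by −0.11 (−0.21 to −0.02) for EE-DE/EE-C, a difference of −0.28 between the log2 fold changes. Cyp46a1 was higher by 0.11 for C-DE/C-C and lower by −0.06 for EE-DE/EE-C, a difference of −0.17. With 1 pool in each group neither difference was tested. Both are below the 1.5-fold threshold, and Cyp2a4, Sult1d1 and Sult6b1, whose 2 values also have opposite signs, were not among them because their pairings overlap 0 in at least one housing.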

How the results depend on the processing

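No paired analysis was possible because the replicate number marks 1 of the 2 arrays of the same pool and links no samples across groups. With normexp background correction 1 member was called in each of EE-DE/C-C, EE-C/C-C and EE-DE/C-DE, beside 0.270%, 0.714% and 0.3% of all genes, and with quantile normalization 1 for EE-DE/C-C, beside 0.918%. With the filter on both arrays of 1 pool the counts were 8 for C-DE/C-C, 8 for EE-DE/EE-C, 8 for EE-DE/C-C, 3 for EE-C/C-C and 5 for EE-DE/C-DE, beside 2.54%, 3.72%, 3.59%, 2.41% and 3.02% of all genes. The members this filter adds pass through the pool in which they are bright, and their folds are against signals that may not be above background, so these counts say nothing about stability. A threshold of 2-fold left 0 for EE-DE/EE-C, 0 for EE-DE/C-C and 1 for EE-DE/C-DE, beside 0.174%, 0.156% and 0.288% of all genes, and 1.5-fold in all pairings left 1 for EE-DE/C-DE, beside 0.21%, and 0 in the other comparisons, beside 0.048% to 0.138%. Leaving out single arrays gave 0 (without C-C replicate 1) to 4 (without C-C replicate 2) called members for C-DE/C-C, with 2 when C-DE replicate 2 was left out, while the share of all genes ran from 0.588% to 1.08%. It gave 1 (without EE-C replicate 2 or EE-DE replicate 1) to 2 for EE-DE/EE-C, 2 to 3 for EE-DE/C-C, 0 to 3 (without EE-C replicate 1) for EE-C/C-C, where removing C-C replicate 1 gave 1 and C-C replicate 2 or EE-C replicate 2 gave 2, and 1 (without C-DE replicate 1) to 3 for EE-DE/C-DE. The highest shares of all genes were 1.95% for EE-DE/EE-C and 1.96% for EE-C/C-C, both without EE-C replicate 2, 1.49% for EE-DE/C-C and 1.31% for EE-DE/C-DE. The member median for EE-DE/C-DE was 0.0410 with the mean of probes, and 0.0116 to 0.0601 when single arrays were left out. In limma's fit no member passed the adjusted threshold in any setting. Leaving aside the removal of arrays outside a comparison, 15 of 98 recomputations of the 7 called values were under 1.5-fold and none changed sign. Over all settings the Gst median exceeded that of all genes by 0.05 to 0.12 for EE-C/C-C and 0.09 to 0.11 for EE-DE/C-DE. Signal over background limits the dim members, since 75 of 140 did not pass the filter. The causes of these shifts were not tested.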
